A study of Mus musculus with 6 samples.

Results

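The genes described here are 10 members of the signalling that calls in and holds immune cells: the chemokines Cxcl1, Cxcl10, Cxcl12 and Ccl2, the chemokine receptors Cxcr4 and Ackr3, the alarmin Il33 with its receptor Il1rl1, and the adhesion molecules Vcam1 and Icam1. They were taken by symbol, and all 14 probes that carry these symbols are reported, out of 27509 probes of 20887 named genes on the array. The genes were selected on the processed signals and log ratios of these same 6 arrays, KO against WT, so their differences are given as a description, with no p-value for any of them. The samples were RNA of cells labelled as collecting duct cells, sorted as GFP and dsRED positive from kidneys of C57BL/6 pups at postnatal day 1, with 3 samples of each genotype. The knockout (KO) pups were Hoxb7cre+; Bdkrb2f/f; R26RtdTomato, and the wild-type (WT) pups were Hoxb7cre+; R26RtdTomato; Bdkrb2+/+. Both genotypes therefore carried Cre and the reporter, and the food held 5% sodium for every group, so the comparison is of genotype under gestational salt load and holds no group without it. Hoxb7-driven Cre acts in the ureteric bud lineage, which forms the collecting duct, so the deletion was aimed at that lineage. Its extent in these samples was not measured here. Replicates are described as biological by the submitters. The number of pups per sample and the sharing of litters are not given in the sources used here, so a p-value measures the spread between these samples only.

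Chemokines are small secreted proteins that guide migrating cells through receptors with G protein coupling. CXCL12 acts through CXCR4, while ACKR3 binds and removes CXCL12 without G protein signalling, and in the developing kidney this axis is known from stroma, progenitors and vessels. IL-33 is stored in the nucleus of stromal, endothelial and epithelial cells, is set free by damage, and acts on cells that carry the receptor ST2, the product of Il1rl1. VCAM1 and ICAM1 are surface proteins that bind leukocyte integrins, and their genes, like those of CXCL1, CXCL10 and CCL2, are textbook targets of the transcription factor NF-kB.

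Relative to WT, KO samples held much more Il33 RNA and more Vcam1 and Cxcr4 RNA, and less Cxcl1 and Cxcl10 RNA. Il33 was 8.42-fold higher in KO (log2 difference 3.07 ± 0.39, standard error from the fit, n = 3 arrays per group), Vcam1 2.91-fold (1.54 ± 0.33) and Cxcr4 1.78-fold (0.83 ± 0.10). Cxcl10 and Cxcl1 differed by -1.26 ± 0.15 and -0.92 ± 0.15. Cxcl12 differed by -0.40 ± 0.09 on its brighter probe, and its other probe did not share this difference. The second, dim Vcam1 probe differed by 0.29 ± 0.10 and did not pass the threshold in the fit over probes. Against WT replicate 1 alone, the brighter Vcam1 probe differed by 0.71. Ackr3, Ccl2, Il1rl1 and Icam1 did not pass the threshold of the fit over all genes. In that fit (limma, adjusted p under 0.05 over 14752 genes) 3 of the 10 members were higher and 3 lower, beside 35.3% of all genes called, 15.4% higher and 20% lower. In 4 members every KO value lay above every WT value and in 3 every KO value lay below, beside 24% and 28.2% of all genes. Il1rl1, among these 4 members, entered the test only through the KO arrays. In the fit over all 29808 detected probes, 25.3% of probes were called, and the groups did not overlap in 45.2%. The median difference of the 10 members was 0.51, against -0.02 over all genes. Because the members were selected on this contrast, nothing is read from these counts or from this median. In these bulk samples, fewer cells of a type and less RNA per cell cannot be told apart.

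**Figure D1:**
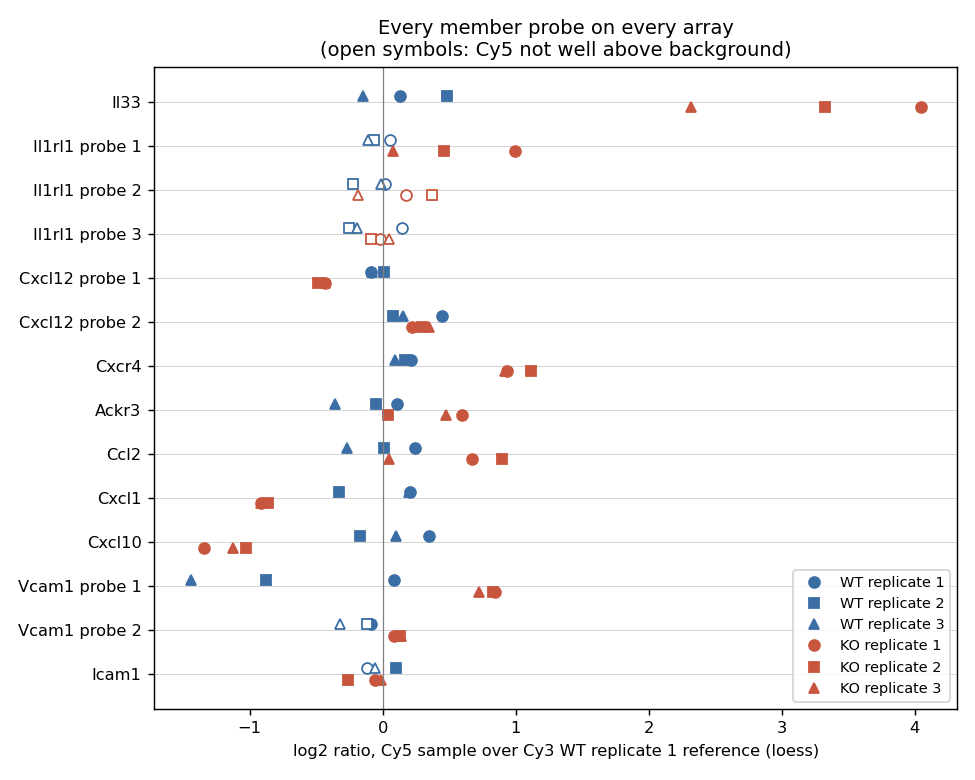
Log2 ratio of sample Cy5 over the Cy3 reference after loess (x axis) for each of the 14 member probes (y axis) on the 3 WT (blue) and 3 KO (red) arrays, with symbols for the replicates and open symbols where Cy5 was not well above background. Il33 in KO lies between 2.32 and 4.05, while Cxcl1 and Cxcl10 in KO all lie left of every WT array.

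The promoters of the members are shown here for the genes that differed most in either direction, Cxcl1 and Cxcl10 on the lower side and Il33 on the higher side. RefSeq (GRCm38.p6) promoter sequences were matched by symbol for 8 of the 10 members, and the 250 bases before each start were searched on both strands for the NF-kB consensus and for a core of the interferon-stimulated response element, GAAA repeated after any 2 bases. The capitals mark these matches. Cxcl1 (chr5:90890995-90891244, plus strand) holds 1 NF-kB stretch, with overlapping matches on both strands, from 71 to 61 bases before the start. Cxcl10 (chr5:92348890-92349139, minus strand) holds 2 NF-kB matches, at 159 to 150 and 103 to 94 bases before the start, and 1 match of the interferon core at 213 to 204. Il33 has 2 starts in the table (chr19:29924863-29925112 and chr19:29945540-29945789, plus strand), and neither window holds these letters.
Cxcl1: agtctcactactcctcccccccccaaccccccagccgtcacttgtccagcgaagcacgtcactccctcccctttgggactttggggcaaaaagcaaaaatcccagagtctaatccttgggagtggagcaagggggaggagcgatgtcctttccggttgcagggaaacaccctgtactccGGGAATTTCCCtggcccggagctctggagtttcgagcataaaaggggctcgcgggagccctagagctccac
Cxcl10: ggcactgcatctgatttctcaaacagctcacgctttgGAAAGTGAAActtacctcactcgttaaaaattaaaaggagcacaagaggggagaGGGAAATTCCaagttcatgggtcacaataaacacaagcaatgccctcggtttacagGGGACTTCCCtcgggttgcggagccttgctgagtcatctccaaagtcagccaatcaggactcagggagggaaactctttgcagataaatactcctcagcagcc
Il33 start 1: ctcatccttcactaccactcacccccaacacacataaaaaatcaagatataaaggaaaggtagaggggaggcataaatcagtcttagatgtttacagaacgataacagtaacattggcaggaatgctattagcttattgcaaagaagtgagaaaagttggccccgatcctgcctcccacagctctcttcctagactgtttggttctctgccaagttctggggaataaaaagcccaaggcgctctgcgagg
Il33 start 2: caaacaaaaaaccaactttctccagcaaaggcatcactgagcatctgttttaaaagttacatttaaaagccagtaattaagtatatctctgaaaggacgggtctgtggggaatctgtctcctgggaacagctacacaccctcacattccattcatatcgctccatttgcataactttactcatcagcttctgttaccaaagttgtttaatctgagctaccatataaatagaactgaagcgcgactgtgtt

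Among all 32851 promoter windows of this length, 3.9% held the NF-kB consensus and 2.98% held the interferon core. Cxcl1 and Cxcl10 were the 2 members with an NF-kB match among the 8 with a window, and the matches describe the sequence only. Ccl2 and Vcam1 had no window and could not be searched. A relation of the matches to the differences was not tested. The windows of Cxcl12, Cxcr4, Ackr3, Il1rl1 and Icam1 held neither motif, which says only that these letters are not in these 250 bases.

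Each array carried the sample in Cy5 and RNA of WT replicate 1 in Cy3, so that Cy3 measured the same RNA on all 6 arrays and the WT replicate 1 array set that RNA against itself. Between 49.8% and 52.7% of spots on WT arrays and between 56.6% and 57.5% on KO arrays had Cy5 well above background, and no spot was saturated. The single Bdkrb2 probe stayed near background throughout, on WT and KO arrays alike, so it does not check the genotype labels. The 3 KO arrays and that of WT replicate 1 lay in row 1 of the slide, and those of WT replicates 2 and 3 in row 2, so a fit with slide row as a block compares KO with WT replicate 1 alone. The Agilent processed signals were brighter on the KO arrays in both channels. The median processed Cy3 signal over the genes tested was 1.97 times as high on KO as on WT arrays, although it measured the same RNA, and that of Cy5 was 1.95 times as high. A processed Cy5 signal therefore cannot be compared between genotypes by itself, and the signals below are given beside the ratio. Over the 9 member probes above background on all 6 arrays, Cy3 was 1.89 to 2.14 times as high on KO arrays. Once each array was centred on its median, the Cy3 signal of these 9 probes differed between KO and WT arrays by -0.06 to 0.12 on the log2 scale, with an SD over the 6 arrays of 0.04 to 0.11. On the array of WT replicate 1, which set the RNA against itself, the loess ratios of these 9 probes lay between -0.09 and 0.45. The median gene differed by -0.02 after loess and by 0.24 when the ratios were only centred on each array's median. The share of called genes that were higher in KO was 43.5% of 5213 with loess and 74.4% of 4050 with centring, and the differences below are read against these shifts.

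**Figure D2:**
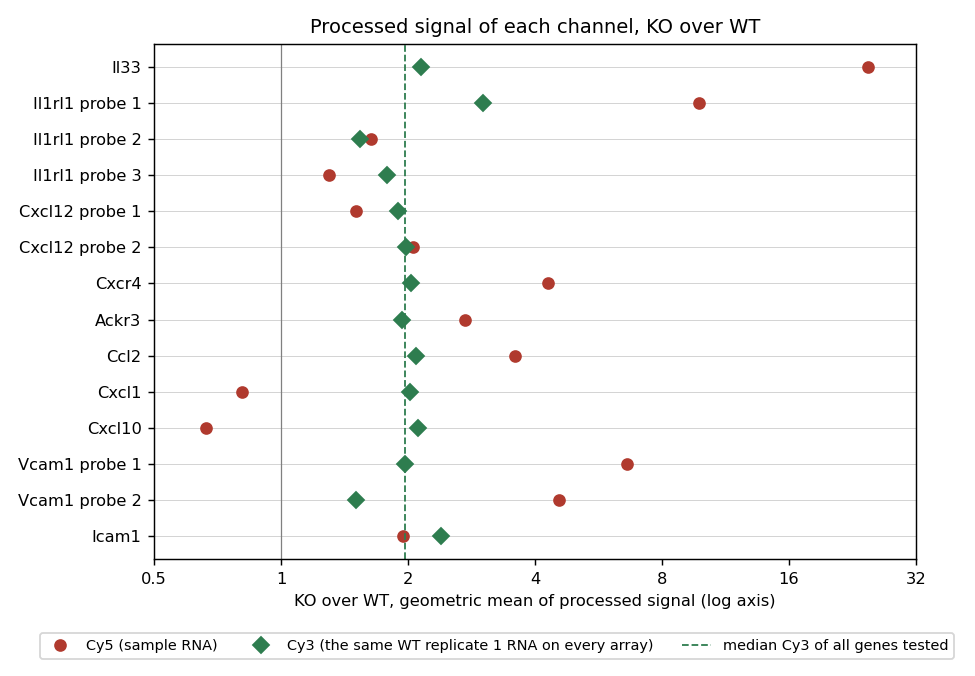
KO over WT ratio of the geometric mean processed signal (log axis) for each member probe, in Cy5 (circles) and in Cy3 (diamonds), which held the same reference RNA on every array. The Cy3 values of the brighter probes lie near the dashed line at 1.97, and the Cy5 value of Il33 lies at 24.6.

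Il33, the alarmin, had the largest difference of the 10 members and the fifth largest increase of all 14752 genes tested. Its processed Cy5 signal was 142, 201 and 98.4 in WT replicates 1 to 3 and 6889, 3763 and 1603 in KO replicates 1 to 3. The lowest KO array was above the highest WT array by a wide margin, and the KO arrays differed more among themselves than the WT arrays. The log2 ratio deposited in the scanner files was 0.26, 0.73 and -0.09 in WT and 4.62, 3.98 and 2.86 in KO. After loess it was 0.13, 0.48 and -0.15 in WT (mean 0.15 ± 0.31, SD, n = 3) and 4.05, 3.32 and 2.32 in KO (3.23 ± 0.87, SD, n = 3). The Cy3 signal of the same probe, centred, differed between KO and WT arrays by 0.12. Leaving out single arrays gave differences from 2.67 to 3.53, and Il33 was called higher under all 17 alternative settings, which moved it between 2.67 and 3.64.

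Il1rl1 encodes the IL-33 receptor, and 3 probes carry its symbol. The probe that stands for the gene, for transcript NM_001025602, was well above background on all 3 KO arrays but on none of the WT arrays. Its processed Cy5 signal was 11.3, 10.5 and 6.37 in WT and 139, 90.4 and 56.9 in KO. Its deposited log2 ratios were 0.28, -0.41 and -0.84 in WT, against 2.59, 1.28 and 0.28 in KO, so that KO replicate 3 lay close to WT replicate 1. The WT side has only a bound. On the Cy5 level, the KO mean was at least 1.67-fold above the lowest signal that counts as well above background. That is more than the 1.46-fold of the loess ratio, so the bound is no lower limit for the ratio. The log2 Cy5 level behind this bound, after loess and quantile scaling, was 6.29 in WT and 7.04 in KO. The loess difference of 0.55 ± 0.21 did not pass the threshold, and it was 0.31 without KO replicate 1. Under settings where it passed, such as without KO replicate 3, the WT side was still below background and no size is read from them. The probe entered the test only through the KO arrays. Its Cy3 signal was also higher on KO arrays, by 0.61 on the centred log2 scale, against -0.06 to 0.12 for the 9 probes above background on all arrays. The other 2 Il1rl1 probes, for NM_010743 and again for NM_001025602, stayed near background throughout. Their Cy5 signals were 2.89 to 9.50, and no fold is given for them. The KO signal of the first probe was thus not seen on the other probe for the same transcript.

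In the CXCL12 axis only Cxcr4 was called under all 17 settings, while Cxcl12 depended on the probe and Ackr3 overlapped between genotypes. Cxcl12 has 2 probes for different transcripts. The brighter, for NM_001012477, gave processed Cy5 signals of 10832, 10792 and 9592 in WT and 14915, 16549 and 15397 in KO. All 3 KO signals were above all WT signals, but the Cy3 signal of the same probe was 1.89 times as high on KO arrays. The ratio therefore ran the other way, with loess values of -0.09, 0.01 and -0.08 in WT and -0.43, -0.48 and -0.43 in KO. The groups did not overlap, as was the case for 52.1% of all genes tested. The second probe, for NM_021704, gave signals of 1434, 1232 and 1107 in WT and 2627, 2916 and 2201 in KO. After loess the ratios of this probe, 0.45, 0.08 and 0.15 in WT and 0.22, 0.30 and 0.35 in KO, overlapped, and its difference was 0.06 ± 0.12. Under median centring the 2 probes gave -0.02 and 0.36, so the direction of Cxcl12 depends on the probe and the scaling. The brighter probe left the called genes under median centring, with the mean of the probes (-0.17) and with slide row as a block.

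Cxcr4, the signalling receptor of CXCL12, gave Cy5 signals of 130, 150 and 119 in WT and 592, 672 and 464 in KO. Its loess ratios were 0.22, 0.17 and 0.09 in WT (mean 0.16 ± 0.06, SD, n = 3) and 0.94, 1.11 and 0.92 in KO (0.99 ± 0.11, SD, n = 3). Each KO array lay above each WT array, with a narrow spread in both groups. The deposited ratios gave a larger difference, 1.08, and the settings ranged from 0.77 to 1.18 with the call unaltered in all 17. Ackr3, the scavenging receptor for the same ligand, had signals of 1792, 1560 and 1092 in WT and 4970, 3542 and 3546 in KO. Its loess ratios, 0.11, -0.05 and -0.36 in WT and 0.60, 0.04 and 0.48 in KO, overlapped through KO replicate 2. The difference of 0.47 ± 0.18 did not pass, and it passed without KO replicate 2 (0.64) and under median centring (0.78).

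Cxcl1 and Cxcl10, ligands for neutrophils and for T cells respectively, were lower in KO on every setting run. Cxcl1 gave Cy5 signals of 196, 135 and 179 in WT and 137, 142 and 128 in KO, although the KO arrays were brighter as a whole. The deposited log2 ratios were 0.30, -0.44 and 0.30 in WT, against -1.28, -1.24 and -1.30 in KO. The 3 KO values lay close together, and WT replicate 2 was the WT array nearest to them. Cxcl10, induced by interferon, gave signals of 337, 206 and 273 in WT and 127, 207 and 211 in KO. Its deposited ratios were 0.46, -0.18 and 0.23 in WT, against -1.88, -1.36 and -1.26 in KO, again without overlap. On the deposited ratios the differences were -1.32 for Cxcl1 and -1.67 for Cxcl10, larger than after loess. The offset of 50 added to dim signals before loess draws their ratios towards 0, and with an offset of 16 the differences were -1.10 and -1.44. Both genes were called under all 17 alternative settings. WT replicate 2 was the lowest WT array for both genes.

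Ccl2, the ligand that draws monocytes, has its probe printed at 10 spots on each array, which gives the spread within an array. Its mean Cy5 signal was 91.9, 80.9 and 49.4 in WT and 298, 387 and 147 in KO. After loess the ratios were 0.24, 0.01 and -0.27 in WT, against 0.67, 0.89 and 0.05 in KO. Over all 10 spots, the SD of the ratio within an array was 0.08 to 0.12, smaller than the gaps between arrays of one genotype. KO replicate 3 lay between WT replicates 1 and 2, while KO replicates 1 and 2 lay above all WT arrays. The difference of 0.54 ± 0.23 did not pass the threshold. Without KO replicate 3 it was 0.79 and passed, as it did under median centring (0.82).

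**Figure D3:**
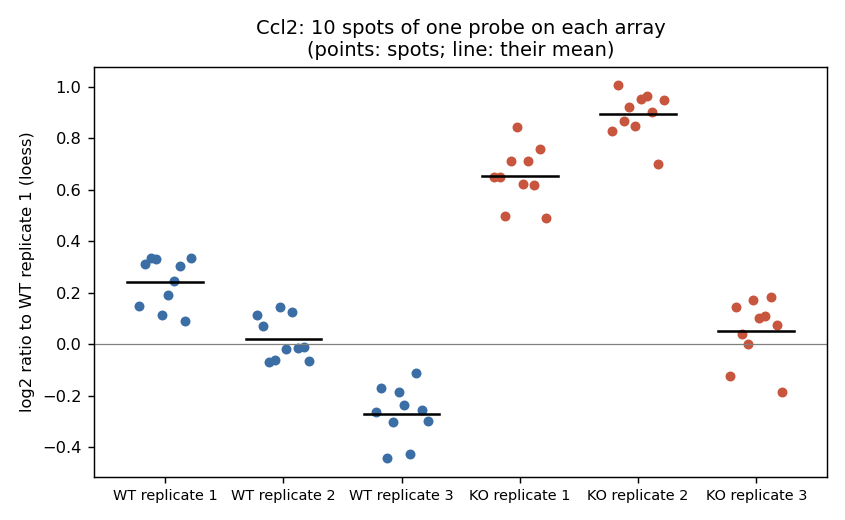
Log2 ratio after loess (y axis) of the 10 Ccl2 spots on each of the 6 arrays (x axis), with points for spots, a line for their mean, blue for WT and red for KO. The spots of KO replicate 3 lie around 0.05, apart from those of KO replicates 1 and 2 around 0.66 and 0.89.

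Vcam1, the ligand of the integrin VLA-4, separated the genotypes and also the WT arrays. Its brighter probe gave Cy5 signals of 565, 267 and 148 in WT and 1842, 2166 and 1615 in KO. The loess ratios were 0.09, -0.88 and -1.44 in WT (mean -0.74 ± 0.77, SD, n = 3) and 0.84, 0.83 and 0.72 in KO (0.80 ± 0.07, SD, n = 3). The KO arrays were nearly alike, whereas WT replicate 1 lay far above the other WT arrays. Against WT replicate 1, the one WT array in the slide row of the KO arrays, the KO mean was higher by 0.71. With slide row as a block the difference took that value and the gene was not called. Without WT replicate 1 the difference was 1.96, and without WT replicate 3 it was 1.19. The second Vcam1 probe was dim, with Cy5 well above background on 1 of 3 WT arrays and signals of 19.7, 8.91 and 5.15 in WT and 40.4, 45.7 and 46.3 in KO. It had the same order of WT arrays, but not of KO arrays, in the deposited ratios, -0.13, -0.96 and -1.92 in WT and 0.64, 0.47 and 0.66 in KO. The deposited ratios of the 2 probes differed between genotypes by 1.75 and 1.59, while after loess with the offset of 50 they differed by 1.54 and 0.29. The second probe was not called in the fit over all detected probes.

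Icam1, the ligand of the integrin LFA-1, was near background, with Cy5 well above it on 1 of 3 WT and all 3 KO arrays. Its signals were 15.2, 24.3 and 18.5 in WT, against 51.3, 31.2 and 31.5 in KO. The loess ratios, -0.12, 0.10 and -0.06 in WT and -0.05, -0.26 and -0.01 in KO, overlapped, and the difference of -0.09 ± 0.11 did not pass. Its direction changed between scalings, from -0.30 on the deposited ratios to 0.0145 under median centring, so none is given.

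KO replicate 3 was the lowest KO array for Il33, Il1rl1, Ccl2, Cxcr4 and Vcam1 after loess. WT replicate 3 was the lowest WT array for Il33, Il1rl1, Ccl2, Cxcr4, Ackr3 and Vcam1.

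Markers of other cell types differed between the same arrays. Over all genes tested, 15.4% were called higher and 20% lower, and the counts below stand beside these shares. Of the stroma markers tested, 10 of 12 were called higher in KO (median log2 difference 1.96), and their summed Cy5 level after loess and quantile scaling was 10484 to 30006 on WT arrays and 61442 to 79118 on KO arrays. The median stroma ratio was 0.12, -0.84 and -1.15 in WT replicates 1 to 3, and 1.57, 1.35 and 1.30 in KO. The values of WT replicate 1 lie near 0 by design, since its array set the reference RNA against itself. The collagen genes Col3a1 and Col1a2 of this list rose by 2.45 ± 0.40 and 1.86 ± 0.42 (limma adjusted p = 0.00247 and 0.0104). Of the nephron progenitor markers, 8 of 9 were higher (median 2.43), with summed levels of 11472 to 13945 in WT and 27199 to 50861 in KO. The progenitor list medians in KO were 2.30, 2.11 and 1.63. Cited1 rose by 2.13 ± 0.33 (limma adjusted p = 0.00202) while Eya1 differed by 0.22 ± 0.09 (adjusted p = 0.103). Of the immune markers, 9 of 13 tested were higher and 1 lower (median 0.75), with summed levels of 5239 to 7329 in WT and 8964 to 13248 in KO. All 13 were well above background on all WT arrays, and Cd68 was not matched on the array. The immune medians were -0.01, -0.40 and -0.57 in WT, against 0.56, 0.76 and 0.25 in KO. The macrophage receptor gene Csf1r rose by 0.99 ± 0.24 and Fcer1g by 0.75 ± 0.15 (adjusted p = 0.0144 and 0.00717). The 1 immune marker that fell was Ptprc, the leukocyte common antigen, by 0.43 ± 0.10 (adjusted p = 0.0152), and the T cell gene Cd3e differed by -0.46 ± 0.16 (adjusted p = 0.0562). Both were named after their values were seen. Of the endothelium markers, 10 of 12 were lower (median -0.94), with summed levels of 40020 to 45470 in WT and 22005 to 22806 in KO. The endothelial genes Egfl7 and Robo4 fell by 1.02 ± 0.11 and 1.04 ± 0.13 (adjusted p = 0.000398 and 0.000743). All 15 collecting duct markers tested were lower (median -1.64), though all were well above background on every WT array, and their summed level was 55285 to 56224 in WT and 18467 to 22688 in KO. Of these the water channel gene Aqp3 fell by 1.90 ± 0.09 and the bud gene Hoxb7 fell by 0.69 ± 0.12 (adjusted p = 0.000182 and 0.0028). KO replicate 3 had the lowest KO median in the stroma, nephron progenitor, immune and endothelium lists, and the highest in the collecting duct list. The part of the marker shifts in the differences of the members was not tested.

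**Figure D4:**
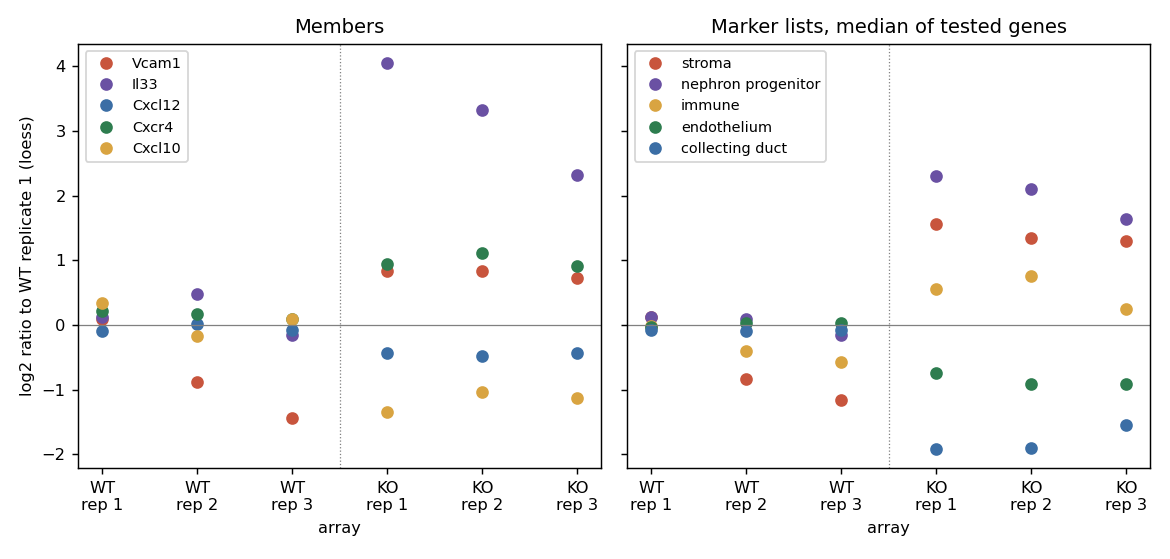
Log2 ratio to WT replicate 1 after loess (y axis) on each array (x axis), for 5 members on the left and for the median of 5 marker lists on the right, with WT arrays left of the dotted line. Among WT arrays, Vcam1 and the stroma, nephron progenitor and immune medians are all highest in WT replicate 1, Vcam1 at 0.09 and stroma at 0.12. That array set the reference RNA against itself, so values near 0 there follow from the design.

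The genes whose ratios over the 6 arrays were most like those of Cxcl12, Ackr3 and Vcam1, the members with the highest mean log2 Cy5 signal, and of Il33, which takes the place of Vcam1 on the linear scale, were named by Pearson correlation, given as a description, since the 6 arrays share 1 reference RNA and differ in genotype. For Vcam1 these were Col5a3 (r = 0.999), Pcp4 (0.997) and the collagen gene Col1a1 (0.995), with 292 of 14751 genes above 0.95. For Il33 they were Mest, Srbd1 and Spata5 (0.999, 0.998 and 0.998). For Cxcl12 they were Inmt, Adra2a and Gal (0.998, 0.998 and 0.997), and for Ackr3 Rpl28, Jarid2 and Pofut2 (0.990, 0.990 and 0.988). Above 0.95 there were 875 genes for Il33, 685 for Cxcl12 and 74 for Ackr3.

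Most of the other chemokines tested, 13 of 20, were not called. Of 34 written, 20 passed the filter, and 6 of them rose and 1 fell (limma, adjusted p under 0.05), with a median difference of 0.37 against -0.02 over all genes, of which 15.4% were higher and 20% lower. With only genes well above background on all 6 arrays, 3 rose. Cx3cl1, the membrane-bound chemokine, fell by 1.52 ± 0.18 on the log2 scale (limma adjusted p = 0.000699). Pf4, a platelet and macrophage chemokine, rose by 1.12 ± 0.25 (adjusted p = 0.0108) and Ccl12, a monocyte ligand related to Ccl2, by 0.83 ± 0.21 (adjusted p = 0.016). Ccl11, an eosinophil ligand, was well above background on none of the WT arrays, and its Cy5 level was at least 1.33-fold higher in KO. It was called (limma adjusted p = 0.0184), but it entered the test only through the KO arrays and so supports no count. Ccl28 and Cxcl13, named after their values were seen, are also among the 6. Ccl28 was above background on none of the WT arrays and Cxcl13 on 1 of 3. The count of 6 was 1 without WT replicate 2, WT replicate 3 or KO replicate 2 and 11 without KO replicate 3, and the 1 lower gene became 2 without KO replicate 3. Ccl11 and Ccl12 lost their calls without each of the first 3 of these arrays.

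Of 21 other chemokine receptors 10 were tested, 2 rose and 1 fell, with a median of 0.20. Cx3cr1, the receptor of Cx3cl1 and a macrophage marker, rose by 1.36 ± 0.26 (limma adjusted p = 0.00474) while its ligand fell. Ccr2, the receptor of Ccl2, rose by 0.44 ± 0.13 (adjusted p = 0.0273), with signal well above background on 1 of 3 WT arrays. Its call was lost without KO replicate 2 or any single WT array, with adjusted p from 0.0238 to 0.0934 as single arrays were left out. The number that rose was 4 without KO replicate 1 and 1 without KO replicate 2 or any single WT array. Ackr2, a scavenger of CC chemokines, fell by 0.60 ± 0.10 (adjusted p = 0.00257).

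In the IL-1 family, to which Il33 belongs, 16 of 27 genes were tested, and 2 rose and 1 fell (median -0.09). Sigirr, an inhibitory receptor of the family, fell by 0.71 ± 0.15 (limma adjusted p = 0.00718). Irak3, an inhibitory kinase relative, rose by 0.43 ± 0.12 (adjusted p = 0.0262), with signal well above background on 1 of 3 WT arrays. The cytokine gene Il1b rose by 0.75 ± 0.24 (adjusted p = 0.0428). With only genes well above background on all 6 arrays, 1 gene of the list rose. Without WT replicate 2 or WT replicate 3 neither Irak3 nor Il1b was called. Irak3 also lost its call without KO replicate 3, and Il1b without KO replicate 1 or 2 and on the deposited ratios. The number that fell was 5 without KO replicate 1.

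Of 28 leukocyte and junction adhesion genes 24 were tested, and 5 rose and 6 fell, with a median of 0.18. Icam2, an endothelial relative of Icam1, fell by 1.12 ± 0.11 (limma adjusted p = 0.000311) and the tight junction gene F11r by 0.76 ± 0.09 (adjusted p = 0.000743). Itga9, an integrin subunit that also binds VCAM1, rose by 1.59 ± 0.19 (adjusted p = 0.000683) and Jam3 by 1.16 ± 0.16 (adjusted p = 0.00129). Pecam1 and Esam stand in this list and among the endothelium markers. The calls of Icam2, Itga9 and Jam3 held under all 17 settings. The number that rose was 3 without WT replicate 2 or WT replicate 3.

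Of 21 genes of NF-kB and TNF signalling tested, 1 rose and 3 fell (median -0.15). Traf1, an NF-kB target and adaptor, rose by 1.98 ± 0.42 (limma adjusted p = 0.00777). Traf2, Nfkbiz and the inhibitor gene Nfkbia fell by 0.53 ± 0.10, 0.49 ± 0.12 and 0.32 ± 0.10 (adjusted p = 0.00469, 0.0128 and 0.0444). Nfkbia was called under 4 of 17 settings, and its call was lost with every single array left out, at adjusted p from 0.0583 to 0.143. Without WT replicate 3 the number that fell was 1. Of 22 interferon response genes tested 2 rose and 4 fell (median -0.21). The interferon-induced genes Oasl2 and Ifit2 rose by 0.89 ± 0.17 and 0.43 ± 0.10 (adjusted p = 0.00483 and 0.0107). Ifi35 and the receptor gene Ifngr1 fell by 0.70 ± 0.12 and 0.44 ± 0.11 (adjusted p = 0.0034 and 0.0167). The call of Ifngr1 was lost without WT replicate 1, WT replicate 2 or KO replicate 3, and that of Ifit2 without WT replicate 3, where 1 gene rose. The number that fell was 2 without any single WT array or without KO replicate 3.

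Over the 6 lists together, 18 of 113 genes tested rose and 16 fell (15.9% and 14.2%, beside 15.4% and 20% of all genes). The 18 include Ccl11 and Ccl28, which entered the test only through the KO arrays. The lists were chosen with earlier results of these data known, so these counts are a description. With only genes well above background on all 6 arrays, 12 rose and 16 fell. With slide row as a block these counts were 2 and 7, and of the genes named above Cx3cl1, Ackr2, Icam2, F11r, Itga9, Jam3 and Ifi35 were still called. Under median centring they were 24 and 3, and the calls of Ackr2, Sigirr, F11r, Traf2, Nfkbiz, Nfkbia, Ifi35 and Ifngr1 were lost. The number that rose was 7 without WT replicate 3, 8 without WT replicate 2 and 10 without KO replicate 2.

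**Figure D5:**
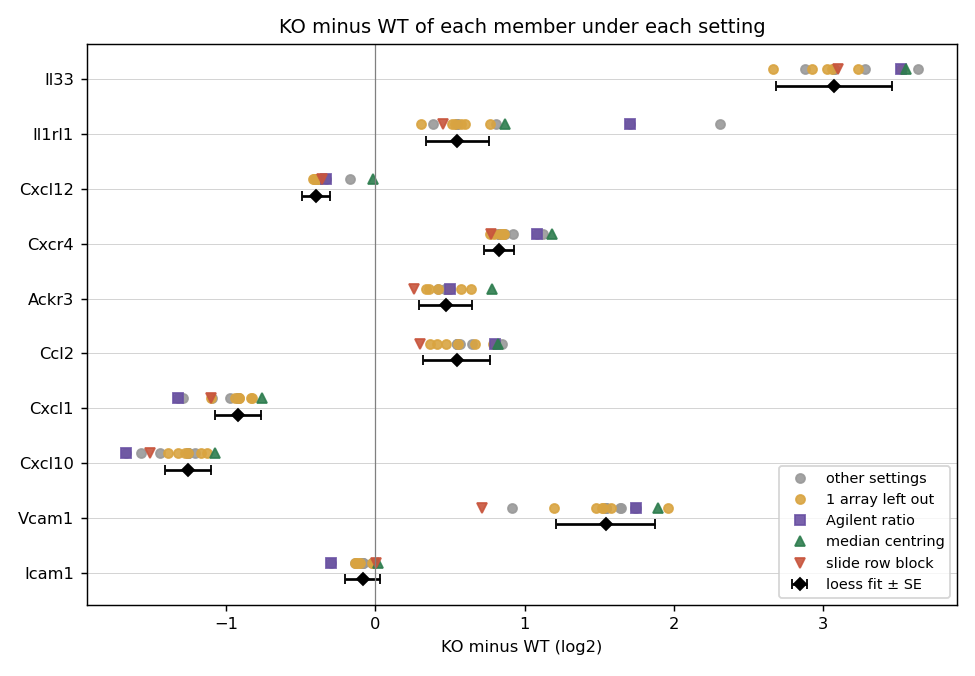
KO minus WT difference on the log2 scale (x axis) of each member (y axis), with black diamonds and bars for the loess fit ± SE and other symbols for the alternative settings. Il33 lies between 2.67 and 3.64 throughout, while Cxcl12 reaches -0.02 under median centring and Vcam1 lies between 0.71 and 1.96.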

How the data were processed

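RNA of 6 samples was measured on 2-colour Agilent arrays, 1 array per sample. Per the file headers, the deposited intensities are median spot and background intensities and processed intensities from Agilent Feature Extraction 10.7.3.1 (the submitters' processing notes name version 6.1), background-subtracted and dye-normalised. The deposited log10 ratio sets processed Cy5 against processed Cy3, per the file headers, and is printed here on the log2 scale. The deposited series matrix held the same log10 ratios within 0.00499.

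Median intensities were corrected by normexp with an offset of 50 and normalised by loess in limma 3.58.1 (R 4.3.3), with control spots at weight 0. Outlier spots were left out and spots of a probe averaged. Accessions were matched to RefSeq symbols (GRCm38.p6), which named 27509 of 55681 probes. The probe with the highest mean Cy5 signal stood for a gene if Cy5 was well above background on at least 3 arrays, leaving 14752 genes. Differences are KO minus WT (lmFit, eBayes, 2-sided, Benjamini-Hochberg over all genes). The fit was tested on simulated data. A bound compares the brighter group's mean Cy5 level, after loess and quantile scaling, with the lowest such level well above background. It is not a bound on the ratio to Cy3.

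The members and lists were chosen with earlier results of these data known. Named list genes are up to 4 with the smallest p among those called, and those of a direction that at most 3 took. Alternatives covered scaling, ratio source, filter, probe choice, offset, blocks, array weights and leaving out arrays. Limits of precision come from the number of arrays.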

Additional observations from a re-analysis of the deposited data

How the results depend on the processing

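Cxcl1, Cxcl10, Cxcr4 and Il33 kept their direction and call under all 17 alternatives. Under median centring 6 members were called higher, and 3 list genes lower. Icam1, not called, changed sign to 0.0145 there and to 0.00604 with slide row as a block, and Nfkbia changed sign to 0.0213 under median centring. With slide row as a block 2219 genes were called, and 2 list genes higher and 7 lower. With array weights 26 list genes were called lower. The causes of these shifts were not tested.

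Leaving out single arrays gave 3246 (without WT replicate 3) to 5709 called genes, 3 to 5 members higher, 3 to 3 lower, and 7 to 25 list genes higher and 11 to 22 lower. The replicate numbers are shared between genotypes, and deviations of same-numbered arrays correlated at 0.13, 0.08 and 0.20, which does not establish a pairing, although each array correlated best with its own number. With the replicate block 5132 genes and 5 members higher were called, Ccl2 and Il1rl1 joining. Dim probes (Il1rl1, Icam1, the second Vcam1 probe) are limited by signal near background.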

Other observations

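Over all genes tested, the median processed Cy5 signal was 1.95 times as high on KO arrays, and the median difference after loess was -0.02. Counts of members are given beside these values as a description and not as a trait of the members. Read from the processed Cy5 signal alone, without the Cy3 channel, 8 of the 10 members would be more than 1.5-fold brighter in KO. In the log2 ratio, 6 of the 10 had a positive difference. The sign differs between these readings for Cxcl12 and Icam1, whose direction on the ratio itself depended on the probe or the scaling, and whose processed Cy3 signals, of the same RNA on all arrays, were 1.89 and 2.39 times as high on KO arrays. For Cxcl1 the processed Cy5 fold was 0.807 beside a Cy3 fold of 2.02, and for Cxcl10 0.664 beside 2.11.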
